A study of Mus musculus with 6 samples.

Results

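The genes described here are 10 genes of lipolysis and glyceroneogenesis in mouse lung, namely *Lipe*, *Pnpla2*, *Mgll*, *Abhd5*, *Lpl*, *G0s2*, *Adrb3*, *Aqp7*, *Pck1* and *Gpd1*. They were chosen by name for their role, with earlier results of these data known. Each was found under its symbol among the 54532 genes of the deposited count table. All 10 reached 0.5 CPM, counts scaled to a common library size, in at least 1 library, the filter that left 18689 genes for testing.

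Lipolysis is the stepwise release of fatty acids from stored triglyceride. *Pnpla2* encodes adipose triglyceride lipase (ATGL), which opens the pathway, *Lipe* encodes hormone-sensitive lipase, which acts mainly on diacylglycerol, and *Mgll* encodes the lipase that splits monoacylglycerol into glycerol and a fatty acid. *Abhd5* encodes the co-activator of ATGL and *G0s2* its inhibitor, *Adrb3* encodes a catecholamine receptor that starts the pathway in fat cells through cyclic AMP, and *Aqp7* encodes a channel through which glycerol leaves the fat cell. *Lpl* encodes the lipase that frees fatty acids from circulating lipoproteins at the capillary wall. Glyceroneogenesis makes the glycerol 3-phosphate on which fatty acids are re-esterified, from precursors other than glucose, and uses the cytosolic phosphoenolpyruvate carboxykinase encoded by *Pck1* and the glycerol 3-phosphate dehydrogenase encoded by *Gpd1*. Most of these genes are best known from adipose tissue, while in the lung fatty acids and glycerol 3-phosphate also feed the surfactant phospholipids of type 2 alveolar cells.

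The data are RNA-seq counts from whole lungs, perfused to remove blood, of untreated mice at 2 months of age, 3 WT and 3 ISM1-/-, on the C57BL/6J background, to ask how the resting lung transcriptome differs when Isthmin-1 (ISM1), a secreted protein, is absent. WT mice were bought and ISM1-/- mice came from a line made in-house, so the effect of genotype and that of origin cannot be told apart. Libraries held 37606133 to 42345042 counts. The targeted gene *Ism1* was still counted in the libraries labelled ISM1-/-, at 2508 to 2953 counts against 2975 to 3215 in WT, which was 87.6% of the WT level in CPM. The difference did not pass the test described below (edgeR, adjusted p = 0.217), so the transcript count gives little check of the labels, and directions below are those of the libraries labelled ISM1-/-. The samples also differed in marker genes of other tissues. The summed CPM of 15 white adipocyte markers was 281 to 349 in WT and 73.6, 85.6 and 172 in ISM1-/- replicates 1, 2 and 3, and that of 14 cardiomyocyte markers was 1717 in WT replicate 1 against 332 to 692 in the other 5 libraries.

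Of the 10 genes, 4 were lower in ISM1-/- lungs and none was higher, a count that dropped to 2 in 4 of the 6 fits with a single library left out (without WT replicate 1, WT replicate 3, ISM1-/- replicate 1 or ISM1-/- replicate 2). *Pck1* fell to 21.9% and *Aqp7* to 25.0% of the WT mean, *Gpd1* to 62.8% and *G0s2* to 72.1%. The 3 lipases of the triglyceride pathway, the co-activator *Abhd5*, the receptor *Adrb3* and *Lpl* did not pass the test, with ISM1-/- means between 80.3% and 95.9% of WT. A gene was called when its p from the quasi-likelihood test of edgeR, adjusted over all 18689 genes by the Benjamini-Hochberg method, was under 0.1. By that rule 3.34% of all genes tested were called lower and 1.38% higher in ISM1-/-. Since the 10 genes were chosen with earlier results known, shares set beside those of all genes are a description and no test of the group. *Pck1* and *Aqp7* also passed a 2-fold minimum, as did 0.284% of all genes in each direction, and neither passed it in those same 4 fits. *Aqp7* entered the test through WT replicate 1 alone, the genotype in which it is high, so its call is no support for a share above that of all genes. With 0.5 CPM required in at least 3 libraries *Aqp7* was not tested, and 3 of the other genes were called, 1 of them with a 2-fold change. At an unadjusted p under 0.05, 6 of the 10 genes were lower, against 9.3% of all genes, and none was higher. DESeq2 called 4 of the 10 lower, with *Pnpla2* in place of *Aqp7*, against 4.75% of the genes it tested, and none higher. Every one of the 10 log2 fold changes was below 0, as were 48.8% of those of all genes, and they ran from -2.19 to -0.06 with a median of -0.26 against 0.0043 over all genes. The genotypes did not overlap for 5 of the 10 genes, all lower in ISM1-/-, where 12.3% of all genes were lower and 9.33% higher without overlap. *Aqp7* is counted in these 5, in the 6 genes at an unadjusted p under 0.05 and in the 2 with a 2-fold change. Since it passed the filter through WT alone, it adds no support to those shares either.

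**Figure D1:**
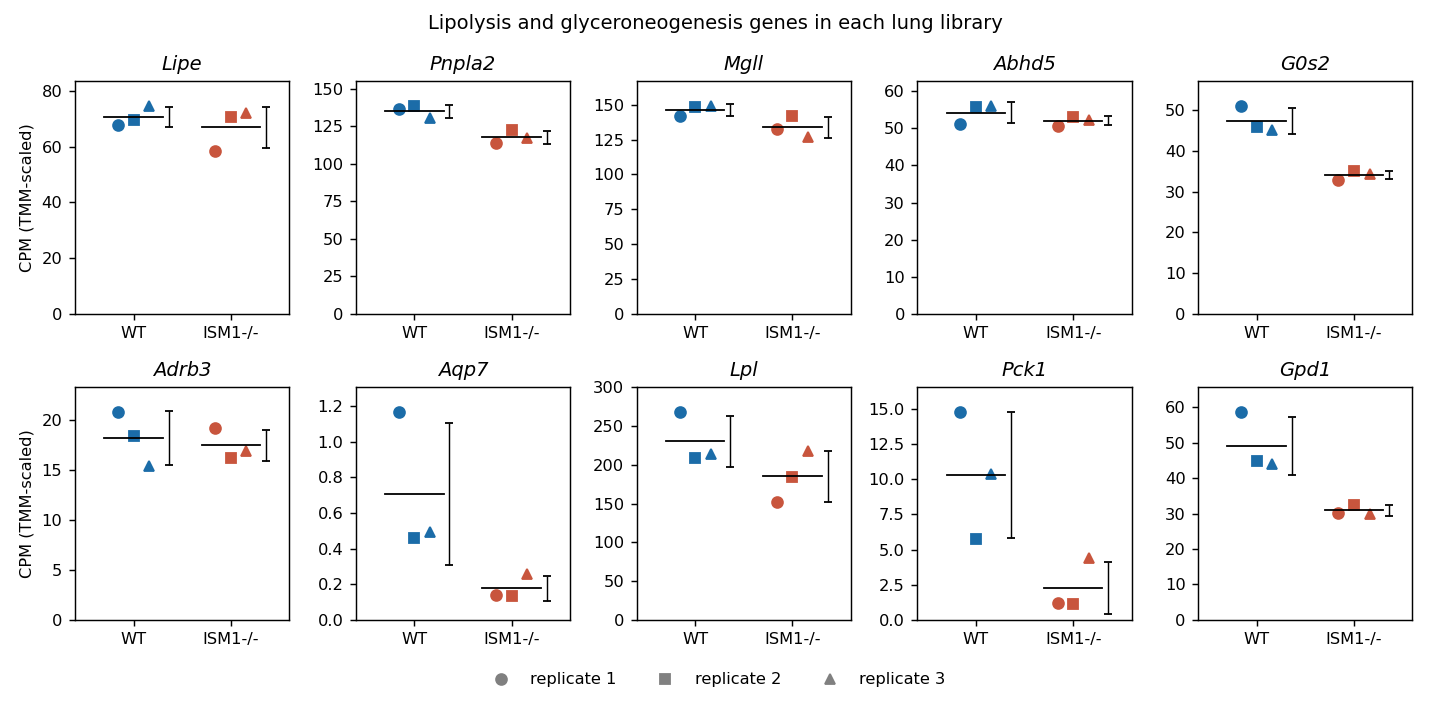
Level of each of the 10 genes in every library, in TMM-scaled CPM on a linear vertical axis that starts at 0 and has its own range in each panel. Points are libraries with a shape for each replicate, lines are means of 3 libraries, and bars beside them are 1 SD either way. The 3 ISM1-/- points lie below all 3 WT points for *Pnpla2*, *G0s2*, *Aqp7*, *Pck1* and *Gpd1*, and the genotypes overlap for the other 5 genes.

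**Figure D2:**
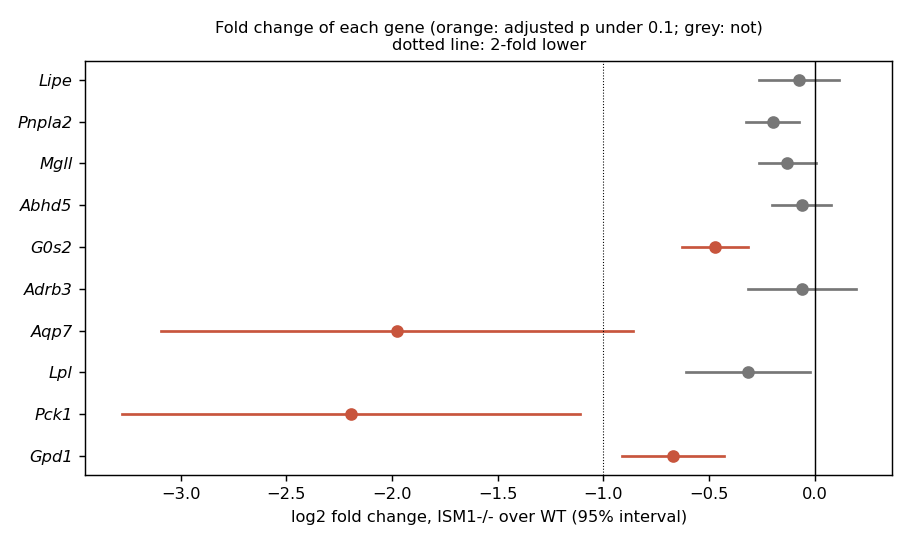
Log2 fold change of each gene, ISM1-/- over WT, from edgeR's quasi-likelihood fit of 3 libraries per genotype, with 95% confidence intervals. The intervals of *Pck1*, *Aqp7*, *Gpd1*, *G0s2*, *Pnpla2* and *Lpl* lie below 0, and orange marks the 4 genes with an adjusted p under 0.1.

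The regulatory sequence of the called genes is shown here because *Pck1* is a textbook target of cyclic AMP, the messenger that also drives lipolysis. RefSeq promoter windows on GRCm38.p6, from 250 bases before to 50 bases after a transcription start, were found for 7 of the 10 genes in 10 windows. *Lpl*, *Adrb3* and *Gpd1* were not among them. Each line below gives bases -250 to -31 relative to the start, 5' to 3' on the strand of the gene. Capitals mark a match to TGACG, the core of the cyclic AMP response element, or to AGGTCA, a nuclear receptor recognition sequence, on either strand.
Pck1, chr2:173152823-173153042, plus strand: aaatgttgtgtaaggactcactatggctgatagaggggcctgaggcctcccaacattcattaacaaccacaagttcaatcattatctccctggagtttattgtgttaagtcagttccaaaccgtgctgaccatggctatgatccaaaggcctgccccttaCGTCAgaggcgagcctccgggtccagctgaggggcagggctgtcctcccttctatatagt
Aqp7, chr4:41048167-41048386, minus strand: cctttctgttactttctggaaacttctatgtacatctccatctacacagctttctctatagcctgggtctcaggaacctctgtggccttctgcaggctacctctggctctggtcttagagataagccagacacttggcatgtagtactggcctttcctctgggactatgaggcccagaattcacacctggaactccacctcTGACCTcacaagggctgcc
G0s2, chr1:193273219-193273438, minus strand: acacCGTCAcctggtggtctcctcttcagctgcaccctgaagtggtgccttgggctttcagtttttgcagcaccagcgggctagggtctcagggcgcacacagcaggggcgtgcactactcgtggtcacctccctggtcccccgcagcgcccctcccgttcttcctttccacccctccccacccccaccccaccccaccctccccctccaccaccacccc
In these stretches *Pck1* held the TGACG core on the opposite strand starting at -90, *G0s2* held it on the opposite strand at -246, and *Aqp7* held AGGTCA on the opposite strand at -49. The TGACG core occurred in 20.8% of all 32851 windows of the table and AGGTCA in 16.3%. Pairs of AGGTCA spaced by a single base (AGGTCANAGGTCA), the arrangement bound by PPAR and RXR, occurred in 0.0396% of windows and in none of the 10. TATAAA, found in 13.6% of windows, was in none of the 10 either, and AGAACA, a glucocorticoid receptor recognition sequence found in 19% of windows, matched in *Aqp7* and in 1 of the windows of *Mgll*. Of the genes not called, *Abhd5* held both the TGACG core at -128 and AGGTCA at -69, and 1 window of *Mgll* held the TGACG core on the opposite strand at 20 bases into the transcript, while the windows of *Lipe* and *Pnpla2* held no match to any of these sequences. A match is a run of letters and does not show that a factor binds there. The search took only these exact letters within these windows, so an absent match does not show that a gene lacks a site.

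None of the 3 lipases of the stepwise pathway was called, and the ISM1-/- means were 87.2% of WT for *Pnpla2*, 91.5% for *Mgll* and 95% for *Lipe*. *Pnpla2* (ENSMUSG00000025509, chromosome 7, 141455198 to 141460743, plus strand, GRCm38) was at 137, 139 and 130 CPM in WT replicates 1, 2 and 3 and at 114, 122 and 117 CPM in ISM1-/- replicates 1, 2 and 3. All 3 ISM1-/- libraries were below the lowest WT library. The means were 135 ± 4.33 and 118 ± 4.28 CPM (SD, n = 3 each), a log2 fold change of -0.20 (SE 0.0565, 95% confidence interval -0.32 to -0.07). Its adjusted p of 0.110 (edgeR, Benjamini-Hochberg) missed the threshold, while DESeq2 gave 0.0670. For *Pnpla2*, then, the groups did not overlap but the call depended on the tool.

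*Lipe* (ENSMUSG00000003123, chromosome 7, 25379527 to 25398710, minus strand) was at 67.7, 69.6 and 74.7 CPM in WT and at 58.6, 70.7 and 72.0 CPM in ISM1-/- lungs. The genotypes overlapped, with ISM1-/- replicate 1 lowest and the other ISM1-/- libraries inside the WT range. Its log2 fold change was -0.07, and the 95% confidence interval of -0.26 to 0.11 bounds the difference that these libraries leave possible. *Mgll* (ENSMUSG00000033174, chromosome 6, 88724412 to 88828360, plus strand) was at 142, 148 and 149 CPM in WT and at 133, 142 and 127 CPM in ISM1-/- lungs. Its highest ISM1-/- library met its lowest WT library, and the log2 fold change was -0.13 with an interval of -0.26 to 0.01. Neither was called, with Benjamini-Hochberg adjusted p values from edgeR of 0.743 for *Lipe* and 0.340 for *Mgll*.

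Of the activator and the inhibitor of ATGL, only the inhibitor was called. *Abhd5*, the co-activator (ENSMUSG00000032540, chromosome 9, 122351608 to 122381524, plus strand), was at 51.2, 55.7 and 56.1 CPM in WT and at 50.7, 53.1 and 52.3 CPM in ISM1-/- lungs. The ranges overlapped and the log2 fold change was -0.06 (95% confidence interval -0.20 to 0.08, Benjamini-Hochberg adjusted p = 0.706 from edgeR). *G0s2*, the inhibitor (ENSMUSG00000009633, chromosome 1, 193272161 to 193273217, minus strand), was at 51.1, 45.9 and 45.0 CPM in WT and at 33.0, 35.0 and 34.4 CPM in ISM1-/- lungs. The 3 ISM1-/- libraries lay close together and well below the WT range, with means of 47.3 ± 3.26 and 34.1 ± 1.04 CPM (SD, n = 3 each). *G0s2* fell by 0.47 on the log2 scale (SE 0.0696, Benjamini-Hochberg adjusted p = 0.0157 from edgeR). The call held in 6 of 6 fits that left out a single library, with log2 fold changes from -0.51 to -0.41. *G0s2* lies within the span of *Lamb3*, a gene of the opposite strand with a mean of 5468 counts and a log2 fold change of 0.12, but shares no exonic base with it. *Hilpda*, which encodes another inhibitor of ATGL and was not called, had a log2 fold change of 0.11 (interval -0.08 to 0.30). The difference between the changes of *G0s2* and *Abhd5*, or of *G0s2* and *Hilpda*, was not tested.

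*Adrb3*, the beta 3 receptor (ENSMUSG00000031489, chromosome 8, 27225776 to 27250616, minus strand), was at 20.8, 18.4 and 15.5 CPM in WT and at 19.2, 16.3 and 16.9 CPM in ISM1-/- lungs. The ISM1-/- libraries fell within the WT range, and the log2 fold change was -0.06 with a 95% confidence interval of -0.31 to 0.20. The antisense gene *Gm45470* covers 24.9% of the exonic bases of *Adrb3* and had a mean of 147 counts against 707 for *Adrb3*, and because the strand setting of the counting is not given in the sources used here, reads of the pair may have been mixed. *Adrb1*, the beta 1 receptor gene, had a higher mean level per transcript length, at 26.2 and 26.7 FPKM (fragments scaled to transcript length and library total) in WT and ISM1-/- lungs, against 12.8 and 12.3 FPKM for *Adrb3*. *Adrb1* was not called (Benjamini-Hochberg adjusted p = 0.878 from edgeR).

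*Aqp7*, the glycerol channel (ENSMUSG00000028427, chromosome 4, 41033074 to 41048139, minus strand), had the lowest FPKM of the 10 genes, at 0.488 ± 0.277 in WT and 0.121 ± 0.0462 in ISM1-/- lungs (SD, n = 3 each). It had 44, 19 and 19 counts in WT replicates 1, 2 and 3 and 6, 5 and 10 counts in the ISM1-/- replicates, or 1.17, 0.458 and 0.491 against 0.141, 0.132 and 0.256 CPM. Every ISM1-/- library was below every WT library, although WT replicate 1 alone stood above the filter of 0.5 CPM. The means were 0.705 ± 0.400 and 0.176 ± 0.0694 CPM (SD, n = 3 each), a 4.0-fold difference, and the log2 fold change was -1.98 (SE 0.501, 95% confidence interval -3.10 to -0.86, Benjamini-Hochberg adjusted p = 0.0770 from edgeR). Since *Aqp7* passed the filter through WT replicate 1, the group in which it is high, it is absent from the test without that library. Of the 5 other fits with a single library left out, 1 kept the call, and the log2 fold change ranged from -2.33 to -1.82. DESeq2 gave a log2 fold change of -1.99 and no adjusted p. Of the related glycerol channels, *Aqp3* was at 1.98 and 1.94 CPM and *Aqp9* at 0.924 and 1.19 CPM in WT and ISM1-/- lungs, and neither was called (Benjamini-Hochberg adjusted p = 0.982 and 0.579 from edgeR).

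*Lpl*, the lipoprotein lipase (ENSMUSG00000015568, chromosome 8, 68880491 to 68907448, plus strand), varied more among libraries than the lipases above. It was at 268, 209 and 214 CPM in WT and at 152, 185 and 218 CPM in ISM1-/- lungs, so ISM1-/- replicate 3 stood above 2 WT libraries while replicate 1 was the lowest of the 6. The means were 230 ± 32.7 and 185 ± 33.2 CPM (SD, n = 3 each), and the log2 fold change of -0.32 (SE 0.131) had a Benjamini-Hochberg adjusted p of 0.271 from edgeR. Without ISM1-/- replicate 3 it was -0.45 with an adjusted p of 0.0807. *Gpihbp1*, which encodes the protein that holds LPL at the capillary wall, was at 116 ± 3.94 and 115 ± 6.28 CPM (SD, n = 3 each), and *Angptl4*, which encodes an inhibitor of LPL, at 29.7 ± 7.26 and 31.0 ± 12.4 CPM. Neither was called.

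The largest change among the 10 genes was that of *Pck1*, the cytosolic phosphoenolpyruvate carboxykinase gene (ENSMUSG00000027513, chromosome 2, 173153048 to 173159273, plus strand). It had 557, 240 and 402 counts in WT replicates 1, 2 and 3 and 51, 44 and 172 counts in ISM1-/- replicates 1, 2 and 3, or 14.8, 5.78 and 10.4 against 1.20, 1.16 and 4.41 CPM. All ISM1-/- libraries were below the lowest WT library, but both genotypes were spread widely and ISM1-/- replicate 3 stood near WT replicate 2. The means of 10.3 ± 4.50 and 2.26 ± 1.86 CPM (SD, n = 3 each) differed 4.57-fold. The log2 fold change was -2.19 (SE 0.486, 95% confidence interval -3.28 to -1.11, Benjamini-Hochberg adjusted p = 0.0489 from edgeR). The direction held in all 6 fits with a single library left out, from -3.12 without ISM1-/- replicate 3 to -1.84 without WT replicate 1. The call held in 2 of them, and was lost without WT replicate 1 (adjusted p = 0.107), WT replicate 3 (0.114), ISM1-/- replicate 1 (0.172) or ISM1-/- replicate 2 (0.162). *Pck2*, which encodes the mitochondrial enzyme of the same reaction, was at 42.2 ± 1.01 and 39.3 ± 4.24 CPM (SD, n = 3 each), with a log2 fold change of -0.10 and an interval of -0.28 to 0.08.

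*Gpd1*, the cytosolic glycerol 3-phosphate dehydrogenase gene (ENSMUSG00000023019, chromosome 15, 99717515 to 99725005, plus strand), was at 58.6, 44.9 and 43.9 CPM in WT and at 30.1, 32.5 and 29.9 CPM in ISM1-/- lungs. The ISM1-/- libraries were tightly grouped below the WT range, in which replicate 1 stood above the others. The means were 49.1 ± 8.23 and 30.9 ± 1.45 CPM (SD, n = 3 each), a 1.59-fold difference, and the log2 fold change was -0.67 (SE 0.108, Benjamini-Hochberg adjusted p = 0.0186 from edgeR). The call held in 6 of 6 fits that left out a single library, with log2 fold changes from -0.75 to -0.52. The antisense gene *Gm16537* covers 13.0% of the exonic bases of *Gpd1* and had a mean of 48.2 counts. *Gpd1l*, which encodes a related dehydrogenase, was at 76.5 ± 2.83 and 78.0 ± 2.20 CPM and was not called. Of the other genes, *Lipe*, *Abhd5* and *Mgll* also share 15.6%, 16% and 3.3% of their exonic bases with antisense genes, which had means of 179.5, 13.8 and 49.7 counts.

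**Figure D3:**
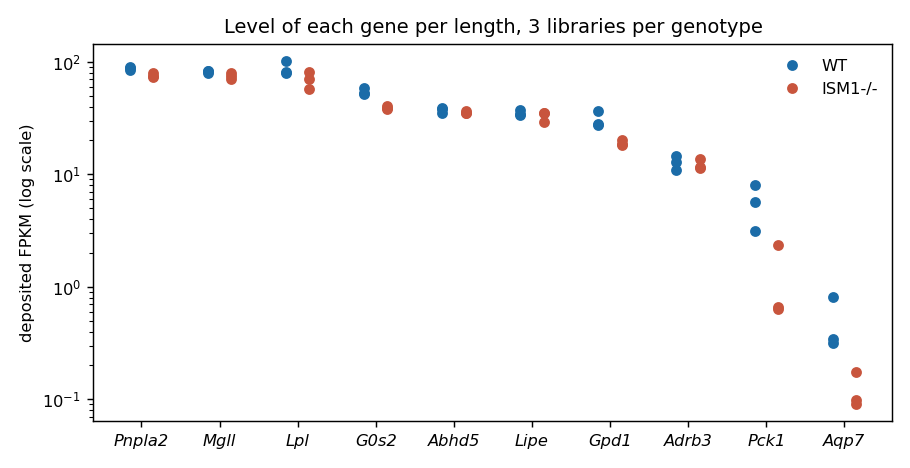
Deposited FPKM of the 10 genes in each library on a log10 axis, ordered by the mean over 6 libraries. Points are libraries, WT in blue and ISM1-/- in orange, and *Pck1* and *Aqp7* sit at the bottom of the order in both genotypes.

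Per transcript length, as FPKM, the order of the 10 genes by their mean over all libraries ran from *Pnpla2* (81.6 FPKM), *Mgll* (78.3 FPKM) and *Lpl* (78.3 FPKM) through *G0s2* (46.7 FPKM), *Abhd5* (36.5 FPKM), *Lipe* (34.1 FPKM) and *Gpd1* (24.8 FPKM) to *Adrb3* (12.5 FPKM), *Pck1* (3.43 FPKM) and *Aqp7* (0.305 FPKM). Several neighbours in that order could not be separated. The ranges of *Mgll* and *Lpl* met within both genotypes, as did those of *Abhd5* and *Lipe*. The ranges of *Pnpla2* and *Mgll*, and those of *Lipe* and *Gpd1*, met in 1 genotype. *Adrb3*, *Pck1* and *Aqp7* were each below the gene before them in every library of the same genotype. *Pck1* ranged from 3.16 to 8.08 FPKM in WT and from 0.633 to 2.37 FPKM in ISM1-/- lungs, so its highest and lowest libraries of a genotype differed by a larger factor than those of any gene above it in the order. The lengths behind the FPKM values are shorter than the exonic lengths listed for the genes in 9 of the 10 cases, for example 2648 bases in place of 10478 for *Lpl*, and only for *G0s2* are they the same, which affects levels between genes but not the fold changes from counts.

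The rest of the pathway was read from 4 lists of related genes in the same fit, 78 of 86 genes being tested. Across the lists, 7 genes were called lower and 3 higher in ISM1-/- lungs, with a median log2 fold change of -0.08, and DESeq2 called 8 lower and 3 higher. The called lower share was 8.97%, against 3.34% of all genes tested, as a description without a test of the lists. Of the 7 genes called lower, *Tshr* reached 0.5 CPM only in WT libraries, the genotype in which it is high. Its call is therefore no support for a share above that of all genes, here or in its own list.

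In hormonal control of lipolysis, 3 of 31 genes were lower and 3 higher, as by DESeq2, and at an unadjusted p under 0.05 they were 5 and 4. *Plin1*, which encodes the coat protein that guards the fat droplet from the lipases, fell from 14.6 ± 3.23 to 3.97 ± 2.00 CPM (SD, n = 3 each), a log2 fold change of -1.88. *Fabp4*, which encodes the fatty acid carrier that binds hormone-sensitive lipase, fell from 41.1 ± 7.08 to 14.9 ± 7.74 CPM (log2 fold change -1.46), and *Tshr*, the thyrotropin receptor gene, fell from 1.16 ± 0.236 to 0.302 ± 0.0275 CPM (log2 fold change -1.93). In the other direction, the natriuretic peptide clearance receptor gene *Npr3* rose from 119.7 ± 14.1 to 174.8 ± 4.70 CPM (log2 fold change 0.55). *Npy1r*, a neuropeptide Y receptor gene, and *Gnai1*, an inhibitory G protein gene, rose by 0.43 and 0.27 on the log2 scale. Adjusted p values for these 6 genes lay between 0.0163 and 0.0878 (edgeR, Benjamini-Hochberg). The median of the list was -0.05, and 25 of its 31 genes were not called.

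Among other lipases and inhibitors of ATGL, 2 of 15 tested genes were lower and none higher, also at an unadjusted p under 0.05 and by DESeq2. *Pnpla3*, a close relative of *Pnpla2*, fell from 3.81 ± 1.03 to 0.920 ± 0.315 CPM (SD, n = 3 each), a log2 fold change of -2.04, and *Pla2g16*, an adipocyte phospholipase gene, fell from 39.1 ± 1.93 to 32.7 ± 1.32 CPM (log2 fold change -0.26). None of 12 tested partners of LPL was called in either direction, where 2 were lower at an unadjusted p under 0.05 and DESeq2 called none. Those with the highest CPM were the fatty acid receptor gene *Cd36*, at 1307 ± 28.7 and 1247 ± 176 CPM, and the lipoprotein receptor gene *Lrp1*, at 714 ± 57.3 and 623 ± 33.9 CPM. In glycerol 3-phosphate and triglyceride assembly, 2 of 20 tested genes were lower and none higher, and the median log2 fold change was -0.16. At an unadjusted p under 0.05, 8 were lower and none higher, and DESeq2 called 3 lower and none higher. *Pcx*, which encodes pyruvate carboxylase, the step before phosphoenolpyruvate carboxykinase in glyceroneogenesis, fell from 88.2 ± 6.66 to 61.8 ± 2.54 CPM (log2 fold change -0.51, Benjamini-Hochberg adjusted p = 0.0116 from edgeR). *Acsl1*, which encodes an enzyme that activates fatty acids, fell from 82.1 ± 4.49 to 64.9 ± 7.59 CPM (log2 fold change -0.34).

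**Figure D4:**
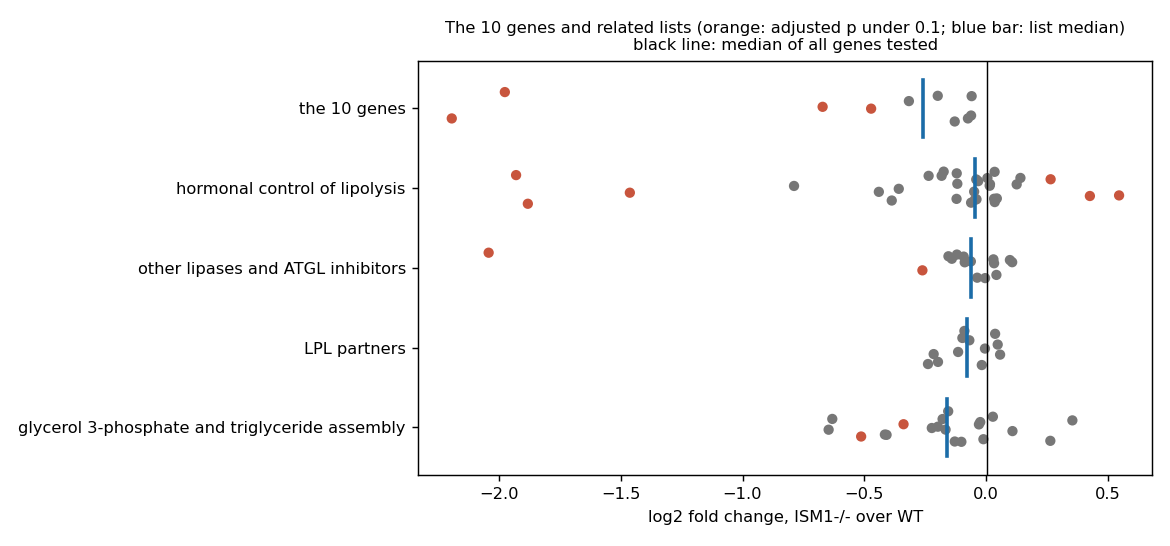
Log2 fold change, ISM1-/- over WT, of the 10 genes and of every tested gene in 4 lists of related genes, from edgeR's quasi-likelihood fit. Each point is a gene, orange where the adjusted p was under 0.1 and grey elsewhere, short blue lines are the list medians, and the black line is the median of all genes tested. The median of the 10 genes is -0.26, and those of the 4 lists lie between -0.16 and -0.05.

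Markers of fat cells moved in the same direction as the 4 called genes. Of the 15 white adipocyte markers 13 were called lower and none higher, the exceptions being *Sncg* and *Tusc5*, and no marker was at 0 in any library. Among the 13, *Lep* reached 0.5 CPM only in WT libraries, where it is high, so its call adds no support. The summed level of the markers was 2.90-fold lower in ISM1-/- lungs and did not overlap between genotypes. *Adipoq*, the adiponectin gene, fell from 12.4 ± 2.23 to 3.76 ± 2.39 CPM (SD, n = 3 each) and *Cfd*, the adipsin gene, from 104 ± 17.3 to 24.3 ± 16.1 CPM. *Car3* fell from 84.9 ± 9.94 to 24.7 ± 17.6 CPM. *Cfd* and *Car3* had the highest CPM of the 15 markers in both genotypes, so they weigh most in the sum. The list shares *Plin1* and *Fabp4* with the list of hormonal control. In whole lung, fewer cells of a type and less RNA per cell cannot be told apart, and the part of the adipocyte markers in the changes of *Pck1*, *Aqp7*, *Gpd1* and *G0s2* was not tested.

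As a share of the summed adipocyte markers, *Pck1* was at 4.23%, 2.06% and 3.13% in WT replicates 1, 2 and 3 and at 1.63%, 1.35% and 2.56% in the ISM1-/- replicates, and the genotypes overlapped. *Aqp7* was at 0.334%, 0.163% and 0.148% in WT and at 0.192%, 0.154% and 0.149% in ISM1-/- lungs, again with overlap. The other 8 genes were higher relative to that sum in every ISM1-/- library, as were 93.8% of all genes tested, and *Gpd1* ranged from 13.2% to 16.8% in WT and from 17.4% to 40.9% in ISM1-/- lungs. *G0s2* ranged from 13.6% to 16.4% and from 20.0% to 44.8%. Relative to that sum, then, the genotypes overlapped for *Pck1* and *Aqp7*, while *Gpd1* and *G0s2* differed by a smaller factor than the sum did.

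**Figure D5:**
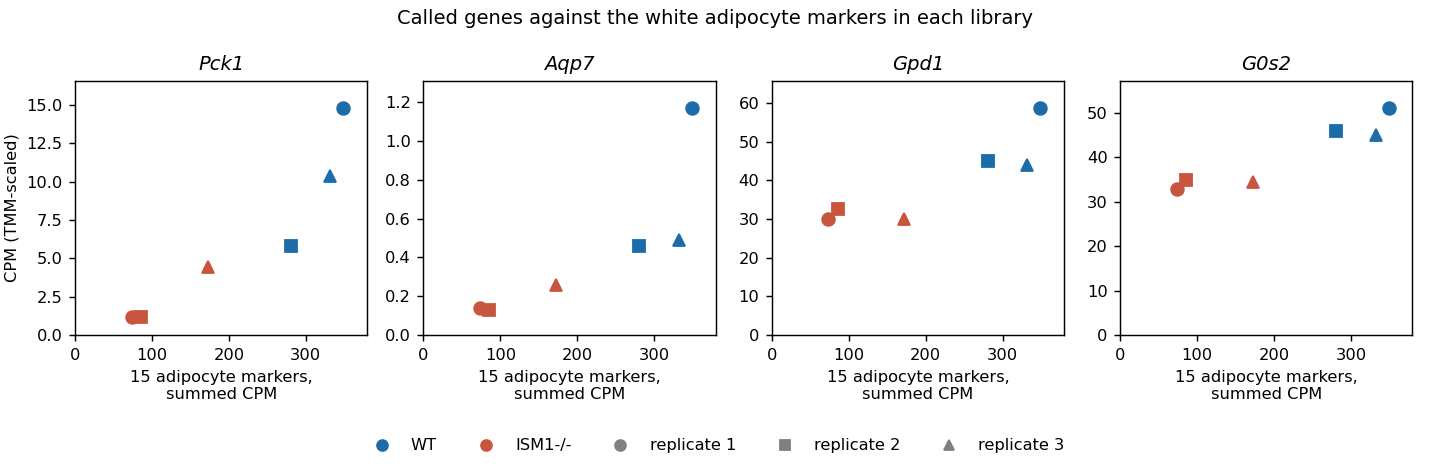
CPM of *G0s2*, *Aqp7*, *Pck1* and *Gpd1* in each library against the summed CPM of 15 white adipocyte markers in the same library, both on linear axes. Points are libraries, WT in blue and ISM1-/- in orange, and the 3 ISM1-/- libraries, at sums of 73.6 to 172, lie below and to the left of the 3 WT libraries, at 281 to 349, in all panels.

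Markers of other tissues and cells were read in the same way. The brown adipocyte markers summed to 90.1, 54.2 and 56.7 CPM in WT replicates 1, 2 and 3. In ISM1-/- replicates 1, 2 and 3 the sums were 52.7, 61.2 and 54.6 CPM, with overlap. *Kcnk3* weighs most in these sums, at 61.8, 45.1 and 42.7 CPM in WT and 45.4, 53.5 and 45.2 CPM in ISM1-/- lungs. It was not called (log2 fold change -0.05), so the sums say little about the other brown adipocyte markers. All 7 brown adipocyte markers tested had log2 fold changes below 0, with a median of -1.13. Of these, 1 was called lower by edgeR, 3 by DESeq2 and 5 at an unadjusted p under 0.05. The cardiomyocyte sums overlapped as well, but all 13 markers tested had log2 fold changes below 0, with a median of -1.07, and 1 was called lower by edgeR, 2 by DESeq2 and 12 at an unadjusted p under 0.05. The 8 skeletal muscle markers summed to 14.4 to 24.4 CPM in WT and 8.65 to 13.3 CPM in ISM1-/- lungs, lower without overlap. *Ckm* had the highest mean CPM of them, at 15.9, 7.49 and 7.68 CPM in WT replicates 1, 2 and 3. In ISM1-/- replicates 1, 2 and 3 it was at 3.79, 6.77 and 7.38 CPM. Of the 4 tested genes 3 had log2 fold changes below 0, and 1 was called lower. *Mylpf* went the other way, from 1.19 ± 0.0935 to 1.59 ± 0.0875 CPM without overlap, and was not called. Markers of brown fat, heart and skeletal muscle thus had mostly lower means in ISM1-/- lungs, the direction of the 4 called genes. In each of these lists WT replicate 1 had the highest sum, at 90.1, 1717 and 24.4 CPM. WT replicates 2 and 3 were at 587 and 692 CPM for heart, against 332, 452 and 617 CPM in ISM1-/- replicates 1, 2 and 3. The part of WT replicate 1 in these lower means was not tested. *Pck1* and *Gpd1* are also abundant in liver. The 8 hepatocyte markers summed to 14.6, 18.2 and 19.2 CPM in WT replicates 1, 2 and 3. In ISM1-/- replicates 1, 2 and 3 the sums were 8.02, 10.8 and 18.5 CPM, with overlap. Of the 8 markers, 3 were tested and none was called, and *Ttr* and *Fgb* had no count in any library. Alveolar macrophage markers summed to 614 to 700 CPM in WT and 552 to 670 CPM in ISM1-/- lungs. Type 2 alveolar cell markers summed to 25100 to 25682 CPM in WT and 24274 to 25270 CPM in ISM1-/- lungs. *Sftpc* weighs most in that sum, at 12457 ± 175 and 12367 ± 502 CPM. Of the 10 type 2 cell markers, 3 were lower and 1 higher without overlap. Only *Lyz1* was called, higher at 347 ± 28.5 against 228 ± 16.4 CPM in WT. Lipofibroblast markers summed to 2860 to 2921 CPM in WT and 2968 to 3240 CPM in ISM1-/- lungs, higher without overlap. Of the 8 lipofibroblast markers, 1 was called lower and none higher. The sum of the neutrophil markers was higher in ISM1-/- lungs, at 132 to 180 CPM against 105 to 125 CPM. Of 9 tested genes 5 were called higher and none lower, and DESeq2 called 5 higher and 1 lower. Among the 5 called by edgeR, *Ngp* reached 0.5 CPM only in ISM1-/- libraries, where it is high, so its call adds no support. *Ltf* went the other way, from 53.8 ± 3.25 to 43.2 ± 7.11 CPM without overlap, and was not called by edgeR. The part of these cell types in the results above was not tested.

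Across the 6 libraries, the genes whose log2 CPM was most like that of *Pck1* among 15867 candidates with a mean of at least 1 CPM were *Gm4032*, *Car5b*, which encodes a mitochondrial carbonic anhydrase, and *Kcna2*, a potassium channel gene, with Pearson correlations of 0.999, 0.997 and 0.996. Their log2 fold changes of -0.43, -0.38 and -0.49 were far smaller than that of *Pck1*. For *Aqp7* they were *Eci1*, an enzyme gene of fatty acid oxidation, *Sfxn2*, a mitochondrial carrier gene, and *Bcl7a*, with correlations of 0.995, 0.995 and 0.994 and log2 fold changes of -0.19, -0.25 and -0.13. These are descriptions over 6 libraries that share genotype and tissue makeup, picked as the highest of many, and they carry no test.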

How the data were processed

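Perfused whole-lung RNA of 3 WT and 3 ISM1-/- mice was sequenced from strand-specific poly-A libraries, 1 per mouse. The authors mapped reads to GRCm38 (mm10) with STAR and deposited raw counts per gene, which are whole numbers without normalization, and FPKM values, which are counts divided by the library total and a gene length. The counting program, annotation release and strand setting are not given in the sources used here. All pairs of libraries differed by more than sampling noise.

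The quasi-likelihood test of edgeR 4.0.16 (R 4.3.3) was run without covariates after TMM scaling on the 18689 genes that reached 0.5 CPM in 1 library or more, and a Benjamini-Hochberg adjusted p under 0.1 made a call. Log2 fold changes are ISM1-/- over WT, and CPM is TMM-scaled. Overlaps with other genes came from GENCODE release M21, in which the coordinates of all 10 genes are those of the count table. The tests were first tried on simulated counts. The named genes were the 10 genes, the called genes of 4 pathway lists (or the 2 most abundant where none was called), close relatives, cell type markers, overlapping genes and the 3 genes most correlated with each 2-fold change. The genes and lists were chosen with earlier results of these data known. Same-numbered replicates are different mice. Alternatives were DESeq2 1.42.0, RLE size factors, other filters, an adjusted p of 0.05, a replicate block, leaving out each library, and limma 3.58.1 on log2(FPKM + 0.1) or log2(FPKM + 1). A result for 1 related gene is not reported here.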

Additional observations from a re-analysis of the deposited data

How the results depend on the processing

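The count of 4 called genes out of 10 was 3 to 6 under the other filters and thresholds, 4 under DESeq2, RLE size factors and both limma fits, and 2 to 6 with any single library left out. The 4 genes were not always the same. *Pnpla2* stood in place of *Aqp7* under DESeq2, for coding genes averaging over 2 CPM, and for limma on log2(FPKM + 1). In that limma fit the adjusted p was 0.0965 for *Pnpla2* and 0.175 for *Aqp7*. The count of 2 genes with a 2-fold change was 1 under DESeq2, with 0.5 CPM in at least 3 libraries, at an adjusted p under 0.05, for coding genes averaging over 2 CPM and for limma on log2(FPKM + 1), and 0 to 2 with a library left out, falling to 0 without WT replicate 1, WT replicate 3, ISM1-/- replicate 1 or ISM1-/- replicate 2. *Aqp7* was not tested under the 2 stricter filters or without WT replicate 1, by their construction. Of 78 related genes, 10 were called, 6 at an adjusted p under 0.05 and 5 to 15 with a library left out (15 without ISM1-/- replicate 3, 5 without WT replicate 2 or ISM1-/- replicate 2). *Pnpla2* was called in 5 alternatives (adjusted p = 0.0670 in DESeq2). With a library left out, the log2 fold change of *Adrb3* ranged from -0.16 to 0.05 (0.0484 without WT replicate 1) and that of *Lipe* from -0.13 to 0.02 (0.0168 without ISM1-/- replicate 1), both uncalled, and the cause was not tested. All other log2 fold changes of the 10 genes stayed below 0.

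With the replicate number as a block, 4 of the 10 genes, 2 with a 2-fold change and 9 of the related genes were called. Same-numbered libraries did not deviate together over all genes (correlations of -0.0405, 0.0310 and 0.00101), which gives no sign of a pairing by number. Only ISM1-/- replicate 2 correlated best with the library of its own number. A batch shared by some libraries was not tested. *Aqp7* had 5 to 44 counts per library, the fewest of the 10 genes.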
